A study of Rattus norvegicus with 16 samples.

Results

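The genes of the epithelial sodium channel and of the sodium pump were described in PCCl3 cells, a differentiated rat thyroid follicular cell line, after silencing of the thyroid transcription factor Pax8. The genes were *Scnn1a*, *Scnn1b* and *Scnn1g*, which encode the alpha, beta and gamma subunits of the channel, *Sgk1* and *Prss8*, which encode a kinase and a membrane-bound protease that raise its activity, and *Atp1b1* and *Fxyd1*, which encode the beta subunit and a regulatory subunit of the Na+/K+ pump. They were found through the RefSeq accession that the array gives for each probe, and 8 of 41012 probes belonged to these 7 genes, out of 8899 genes named in this way. The conditions below were hybridized to Agilent rat whole genome arrays: cells transfected with an siRNA against *Pax8* at 10 ng/ml (siPax8), cells transfected with a scrambled siRNA at 10 ng/ml (siScramble), and cells labelled wild type (wt), which the study's methods list as treated with lipofectamine and a supplement lists as not transfected. RNA was taken 48 h after transfection, and every condition grew with 1 nM TSH, 10 nM hydrocortisone, 10 µg/ml insulin and 5% donor calf serum, so that a glucocorticoid was present throughout. Each comparison, siPax8 with wt and siPax8 with siScramble, had 4 biological replicates on 8 arrays, with the dyes swapped within a replicate, and the design scheme names the same siPax8 samples in both. All values come from 1 cell line and 1 siRNA treatment against *Pax8*, for which the study's methods do not give the number of sequences.

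Epithelial sodium channels are built from an alpha, a beta and a gamma subunit and let sodium enter epithelial cells from the apical side. The Na+/K+ pump, made of an alpha and a beta subunit and often an FXYD protein, moves sodium out on the other side. The gradient that the pump maintains drives the uptake of iodide into thyroid cells by the sodium/iodide symporter. Aldosterone and glucocorticoids raise the channel through *Sgk1*, which keeps the channel from being removed from the membrane, and proteases such as prostasin (*Prss8*), furin and matriptase cleave or activate its subunits.

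Of these genes, *Scnn1g* rose in siPax8 cells against both controls, and *Prss8* fell against wt cells and did not pass the test against siScramble cells. *Scnn1g* and *Scnn1b* were adjacent entries of the RefSeq annotation (GRCr8), with 0 annotated genes between them, and only the first of the pair passed the test. Their promoters are shown because these neighbours differed in this test, although *Scnn1b* was measured near background. The windows run from 250 bases before to 50 after the start of the gene on the plus strand. Capitals mark matches to the GC box GGGCGG bound by Sp1 (CCGCCC on the opposite strand) and to the AP-1 site TGACTCA.
Scnn1g promoter, chr1:185735975-185736274, plus strand: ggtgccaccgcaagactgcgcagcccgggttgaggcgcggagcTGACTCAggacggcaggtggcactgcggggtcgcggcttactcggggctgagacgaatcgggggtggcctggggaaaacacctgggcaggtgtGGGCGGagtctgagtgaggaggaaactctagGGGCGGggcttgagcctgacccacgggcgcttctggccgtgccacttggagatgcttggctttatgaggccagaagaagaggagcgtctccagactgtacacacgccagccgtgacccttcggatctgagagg
Scnn1b promoter, chr1:185861126-185861425, plus strand: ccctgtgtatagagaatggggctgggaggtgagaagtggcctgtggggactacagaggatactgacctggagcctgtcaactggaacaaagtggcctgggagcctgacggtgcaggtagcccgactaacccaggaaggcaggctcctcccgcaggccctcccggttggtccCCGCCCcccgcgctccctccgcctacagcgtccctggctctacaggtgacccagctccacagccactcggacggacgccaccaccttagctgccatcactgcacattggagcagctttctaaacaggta

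The *Scnn1g* window held 2 GC boxes, beginning at -114 and -83 from the start site, and 1 AP-1 site beginning at -207, whereas the *Scnn1b* window held 1 GC box, beginning at -79. Both strands were searched, and no motif overlapped another in these windows. Among all 33469 promoters of this length, 33.1% held the GC box and 4.63% the AP-1 site. The core GCGTGAC of the Pax2/5/8 motif, found in 2% of all promoters, and the glucocorticoid receptor half-site TGTTCT, found in 20.7%, matched neither window. Only exact matches within these windows were searched, so the search cannot tell whether Pax8 binds at either gene. G and C made up 65% of the *Scnn1g* window and 62.7% of that of *Scnn1b*, above the median of 51.7%. CG pairs numbered 21 and 12, against a median of 7. Of the 7 genes, 4 had a promoter in the table, the others being *Sgk1* and *Fxyd1*. The primers with which the study measured *Scnn1g* mRNA by PCR identify the transcript, and the PCR values were not analysed here.
Scnn1g forward primer: cagcaatgtccacttccatagg
Scnn1g reverse primer: cgttgtagatgtttgtgacggg

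Log2 ratios are given as siPax8 over control, so that a positive value is a higher level in siPax8 cells. This direction was read from the dye labels, and the study's wording of how many array probes went up or down, a matter of totals over the arrays, runs the other way. In the direction used here *Pax8* itself had a log2 ratio of -0.56 against wt and -0.25 against siScramble cells, the second not called. A probe was called at an adjusted p under 0.005, the threshold of the study's methods, by limma with Benjamini-Hochberg adjustment over all probes. Against wt cells 7.04% of all probes were called higher and 8.23% lower, and against siScramble cells 1.22% were called higher and 0.897% lower. Among the 8 probes here, 1 was higher and 1 lower against wt cells, and 1 was higher and 0 were lower against siScramble cells. At an unadjusted p under 0.05 limma gave 2 higher and 2 lower against wt cells, where 15.5% of all probes were higher and 18.3% lower. Against siScramble cells it gave 5 higher (*Scnn1g*, *Scnn1b*, *Sgk1*, *Prss8* and *Atp1b1*) and 1 lower, where 8.57% of all probes were higher and 11.9% lower, and of these *Scnn1g* alone passed after adjustment.

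*Pax8*, the target of the siRNA, fell against wt cells to 67.6% of the control level, with a log2 ratio of -0.56 ± 0.24 (SD, n = 4; limma adjusted p = 0.000472). The ratio to siScramble cells, -0.25 ± 0.25 on the log2 scale (SD, n = 4), was below 0 in all 4 replicates and missed the threshold (limma adjusted p = 0.143). The thyroid identity of the cells was checked on 15 marker genes, of which 13 were measured and 12 were above background on all 8 wt arrays, *Epcam* being at background. In siPax8 cells 10 of the 13 were lower and 2 higher against wt cells, and 1 was lower against siScramble cells. Of the genes marking fibroblasts, 1 of 4 was above background on every wt array (*Col1a2*), as were 2 of 2 immune genes (*Cd68* and *Lyz2*), 0 of 2 endothelial genes and 1 of 3 C cell genes (*Calca*). Each marker was counted by its best probe, and the other probes of *Col1a2* and *Calca* were above background on 0 of 8 wt arrays. *Cd68* was higher in siPax8 than in wt cells by 0.30 ± 0.12 on the log2 scale (SD, n = 4, limma adjusted p = 0.000797) and was at 99.8% of the siScramble level (limma adjusted p = 0.986). Whether immune cells were present in this thyroid line, and their part in the values against wt cells, was not tested. *Lyz2* was at 107% and 109% of the controls (limma adjusted p = 0.0316 and 0.0277). Of 14 interferon response genes, 13 were called higher against wt cells (median log2 ratio 1.77) and 2 against siScramble cells (median 0.31), and the part of this response in the values against wt cells was not tested. In bulk RNA, a change in the number of cells of a kind and a change in RNA per cell cannot be told apart.

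**Figure D1:**
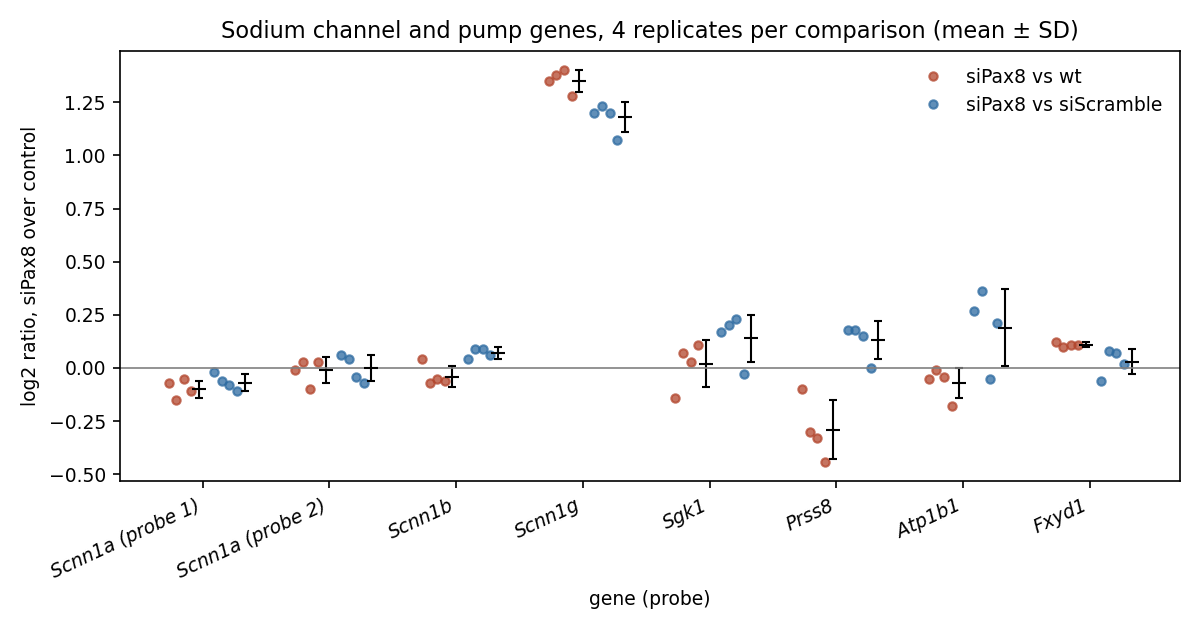
Log2 ratio of siPax8 over control for the 8 probes of the 7 genes; each point is 1 replicate (2 dye-swapped arrays averaged), black bars are the mean ± SD of 4 replicates, and colours give the control. Probe 1 of *Scnn1a* is A_43_P12580 and probe 2 is A_44_P1070856. *Scnn1g* lies between 1.07 and 1.40 in all replicates of both comparisons, and the other probes lie between -0.44 and 0.36.

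*Scnn1g* (probe A_44_P226658, NM_017046) was the one gene of the 7 past the threshold in both comparisons. On the arrays shared with wt cells its normalized log2 intensity in siPax8 cells was 10.1, 10.13, 10.19 and 10.06 in replicates 1 to 4. In the wt cells on the same arrays it was 8.75, 8.75, 8.78 and 8.78. The groups did not overlap, and the gap between them was far larger than their spread. The log2 ratios were 1.35, 1.38, 1.40 and 1.28, with a mean of 1.35 ± 0.05 (SD, n = 4), a 2.55-fold higher level (limma adjusted p = 3.7e-08, 95% interval 1.28 to 1.42 on the log2 scale). By size this was rank 57 among all probes, of which the median size was 0.0442 and the 95th percentile 0.36.

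On the arrays shared with siScramble cells the log2 intensity of *Scnn1g* was 10.09, 10.15, 10.20 and 10.02 in siPax8 cells. In the siScramble cells it was 8.89, 8.92, 9 and 8.95, and again the groups did not overlap. The log2 ratios of 1.2, 1.23, 1.2 and 1.07 gave a mean of 1.18 ± 0.07 (SD, n = 4), a 2.26-fold higher level (limma adjusted p = 3.59e-05, 95% interval 1.1 to 1.25). This was rank 4 by size among all probes, against a median size of 0.0323 and a 95th percentile of 0.21. The siPax8 level was 10.12 in both sets of arrays, and the control level was 8.77 in wt and 8.94 in siScramble cells, which were never hybridized together. The log2 ratio was larger against wt than against siScramble cells by 0.18 (95% interval 0.08 to 0.28), which did not pass the threshold (limma adjusted p = 0.0316), whereas the authors' deposited log2 ratios gave a difference of 0.26 (limma adjusted p = 0.00397). Of all probes, 3.44% were called for this difference.

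The probe was printed in 10 spots on every array, which allowed the technical error to be read within an array. All 80 spots against wt cells had a log2 ratio between 1.02 and 1.66, and all 80 against siScramble cells lay between 0.86 and 1.43. The SD among the spots of an array was 0.03 to 0.10 against wt and 0.03 to 0.14 against siScramble cells, with a median of 0.065 in each. All 10 spots were well above background in both channels on all 16 arrays, and none was saturated or marked as an outlier. The dye orientations differed by more than the SD among spots: the mean log2 ratio was 1.47 with siPax8 in Cy5 and 1.23 with siPax8 in Cy3 against wt cells. Against siScramble cells these means were 1.29 and 1.06. In each of the 8 replicate pairs the Cy5 array gave the higher ratio, and the lowest single array still gave 0.97. Within the 4 slides, each of which held 2 arrays of each comparison, the mean was 1.28 to 1.40 against wt and 1.13 to 1.23 against siScramble cells.

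**Figure D2:**
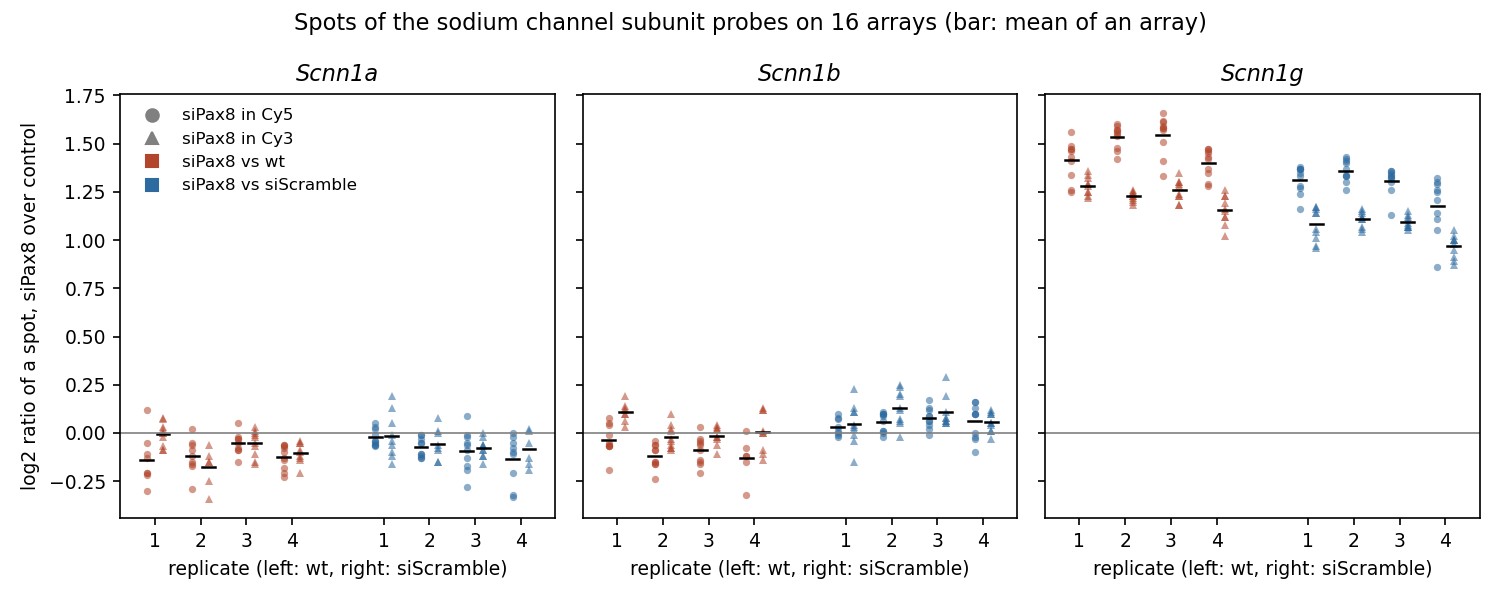
Log2 ratio of siPax8 over control of single spots for the 10-spot probes of *Scnn1a*, *Scnn1b* and *Scnn1g* on 16 arrays, with outlier spots left out; circles are arrays with siPax8 in Cy5, triangles with siPax8 in Cy3, and black bars the mean of an array. For *Scnn1g* all spots lie above 0, between 0.86 and 1.66, while the spots of the other subunits lie between -0.34 and 0.29.

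The genes with the pattern most like that of *Scnn1g* were sought among 8892 named genes by the root mean square difference over the 8 replicate log2 ratios. They were *C1qtnf1* (0.231), *Sv2b* (0.254), *Hprt1* (0.264), *Gadd45a* (0.316) and *Lgals3* (0.345). Against siScramble cells each of the 5 had a lower log2 ratio than *Scnn1g*, from 0.70 for *Lgals3* to 0.98 for *Gadd45a*.

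The alpha subunit gene *Scnn1a* was measured by a pair of probes for the same accession, NM_031548. Probe A_43_P12580, printed in 10 spots, was above background on every array. Its log2 intensity was 6.95, 6.95, 6.95 and 6.94 in siPax8 cells and 7.03, 7.10, 7 and 7.06 in the wt cells on the same arrays. The siPax8 samples were thus below the wt samples without overlap, by a log2 ratio of -0.10 ± 0.04 (SD, n = 4), which did not pass the threshold (limma adjusted p = 0.0419) and did so only with the slide as a random block (limma adjusted p = 0.00438). The same probe gave -0.07 ± 0.04 against siScramble cells (SD, n = 4; limma adjusted p = 0.201), from -0.11 to -0.02 in the replicates, with siPax8 levels of 6.91 to 6.97 below siScramble levels of 6.99 to 7.06. The second probe, A_44_P1070856, was well above background on 0 of 16 arrays in siPax8 cells, 1 of 8 in wt cells and 0 of 8 in siScramble cells, so no fold was given for it. Its log2 intensity, 6.38 to 6.59, overlapped between conditions. In this processing the 95% interval of the first probe was -0.17 to -0.03 against wt and -0.13 to -0.01 against siScramble cells. Both leave out a rise of the size seen for *Scnn1g*. The first probe, at 6.91 to 7.10, lay near the background level of the second, and its ratios depended on the processing, as given below.

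The beta subunit gene *Scnn1b* (probe A_42_P817086, NM_012648, 10 spots) was above background on all arrays but 1 of siScramble cells. Against wt cells its replicate log2 ratios were 0.04, -0.07, -0.05 and -0.06, with a mean of -0.04 ± 0.05 (SD, n = 4; limma adjusted p = 0.502), and the intensities of 6.79 to 6.83 in siPax8 and 6.80 to 6.87 in wt cells overlapped. Against siScramble cells all 4 ratios lay above 0, at 0.04, 0.09, 0.09 and 0.06, and the siPax8 intensities of 6.83 to 6.88 lay above the siScramble intensities of 6.74 to 6.81. The mean of 0.07 ± 0.03 (SD, n = 4) did not pass the threshold (limma adjusted p = 0.164). Its 95% interval against siScramble cells, 0.01 to 0.13, did not meet that of *Scnn1g* or that of *Scnn1a* probe A_43_P12580. It did meet that of the *Scnn1a* probe at background, A_44_P1070856, which was -0.08 to 0.07. In the main processing the alpha and beta genes were thus within 0.17 of 0 on the log2 scale by these intervals, in contrast to the gamma gene. Both were measured near background, with *Scnn1b* at 6.74 to 6.88 and the *Scnn1a* probe at background at 6.38 to 6.59. The mean level of *Scnn1g* was 8.77 in wt and 10.12 in siPax8 cells, so the sizes were not compared at like levels. The bound of 0.17 depended on the processing. With Agilent's processed signals *Scnn1a* probe A_43_P12580 was at -0.28 against wt and -0.22 against siScramble cells, and *Scnn1b* at -0.11 and 0.29. None of these passed the threshold (limma adjusted p = 0.0359, 0.123, 0.267 and 0.0787). *Scnn1g* was at 1.57 and 1.37 with these signals.

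*Prss8*, which encodes the channel-activating protease prostasin (probe A_42_P594793, NM_138836), differed between the comparisons. Its log2 intensity was 8.25, 8.21, 8.20 and 8.08 in siPax8 cells and 8.35, 8.51, 8.53 and 8.52 in the wt cells on the same arrays. The groups did not overlap, and *Prss8* fell to 81.6% of the wt level, with replicate log2 ratios of -0.10, -0.30, -0.33 and -0.44 and a mean of -0.29 ± 0.14 (SD, n = 4; limma adjusted p = 0.00187). On the siScramble arrays the log2 intensity was 8.20, 8.19, 8.30 and 7.96 in siPax8 cells and 8.02, 8.01, 8.15 and 7.96 in siScramble cells. There the groups overlapped, and the mean of 0.13 ± 0.09 on the log2 scale (SD, n = 4) missed the threshold (limma adjusted p = 0.0854). The mean siPax8 level was nearly the same on both sets of arrays, 8.18 and 8.16, and the control level was 8.48 in wt and 8.03 in siScramble cells. The difference between the log2 ratios, -0.42 (95% interval -0.57 to -0.27), passed the threshold (limma adjusted p = 0.003).

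These *Prss8* values rested on 1 spot per array. The mean log2 ratio against wt cells was -0.44 with siPax8 in Cy5 and -0.14 with siPax8 in Cy3, where replicate 1 gave 0.17. The fall against wt cells did not pass the threshold without replicate 2, 3 or 4 (limma adjusted p = 0.0136, 0.0172 and 0.0108). The difference between the comparisons likewise did not pass without replicate 2, 3 or 4 (limma adjusted p = 0.0331, 0.0397 and 0.00665).

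*Sgk1*, which encodes the serum- and glucocorticoid-induced kinase (probe A_44_P313542, NM_019232), passed the threshold in neither comparison. Its log2 intensity was 9.54, 9.47, 9.49 and 9.54 in siPax8 cells against 9.68, 9.39, 9.45 and 9.43 in wt cells, and the groups overlapped. Their mean log2 ratio, 0.02 ± 0.11 (SD, n = 4), did not pass limma's test (adjusted p = 0.833; 95% interval -0.08 to 0.12). Against siScramble cells the replicate ratios were 0.17, 0.20, 0.23 and -0.03, with a mean of 0.14 ± 0.11 (SD, n = 4; limma adjusted p = 0.108; 95% interval 0.04 to 0.25). One siScramble sample, replicate 4 at 9.58, stood above the other siScramble samples at 9.31 to 9.35 and above all siPax8 samples at 9.52 to 9.55.

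*Atp1b1*, the beta subunit gene of the Na+/K+ pump (probe A_44_P435604, NM_013113), had log2 ratios of -0.05, -0.01, -0.04 and -0.18 against wt cells, with overlapping intensities of 15.45 to 15.60 and 15.50 to 15.64. The mean was -0.07 ± 0.07 (SD, n = 4; limma adjusted p = 0.206). Against siScramble cells the ratios were 0.27, 0.36, -0.05 and 0.21, with a mean of 0.19 ± 0.18 (SD, n = 4; limma adjusted p = 0.121). Replicate 3 of this comparison went against the others, and its siScramble intensity of 15.55 lay among the siPax8 intensities of 15.50 to 15.64. Between the comparisons the ratios differed by -0.26, short of the threshold (limma adjusted p = 0.0565).

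*Fxyd1* encodes phospholemman, a regulator of the pump best known from heart and muscle (probe A_42_P572123, NM_031648). It was well above background in siPax8 cells on 1 of 8 arrays with wt and 2 of 8 with siScramble cells, and in the controls on 0 of 8 wt and 1 of 8 siScramble arrays. In siPax8 cells its log2 intensity was 6.64, 6.63, 6.65 and 6.67, above the wt intensities of 6.52, 6.53, 6.55 and 6.56 without overlap. Since these levels were at background on nearly all arrays, no fold was given. The difference did not pass the threshold (limma adjusted p = 0.0165). Against siScramble cells the replicate ratios ran from -0.06 to 0.08 (limma adjusted p = 0.731).

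**Figure D3:**
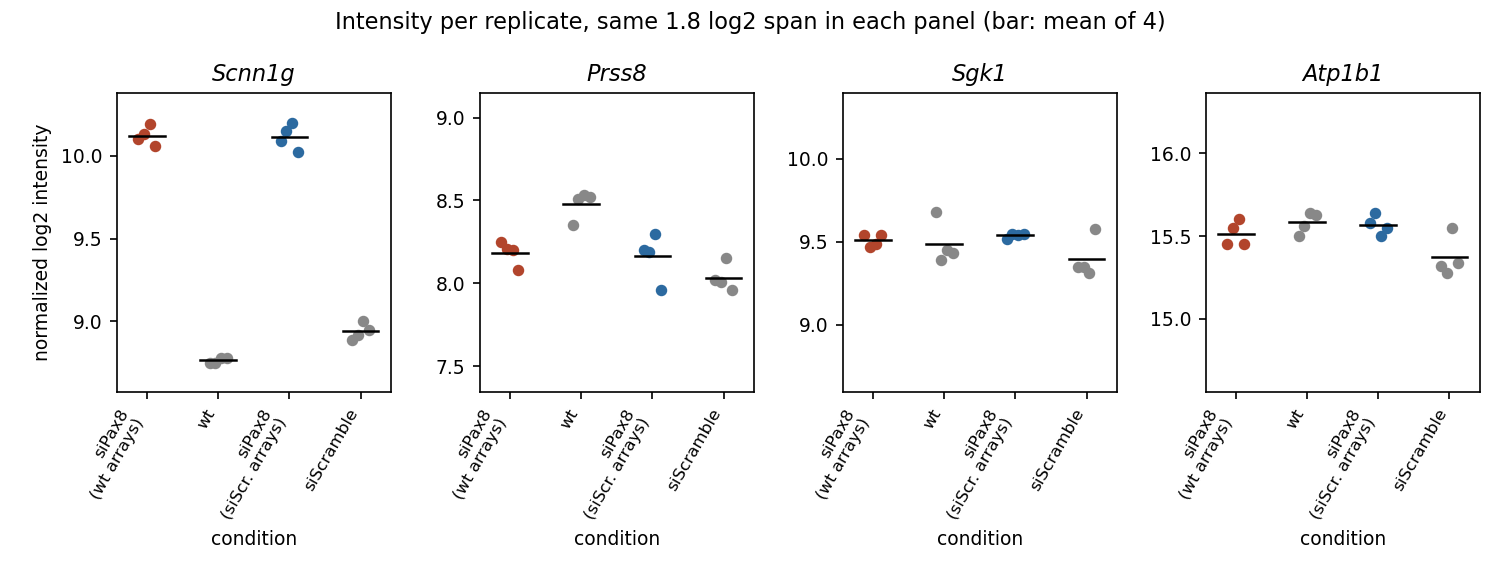
Normalized log2 intensity of *Scnn1g*, *Prss8*, *Sgk1* and *Atp1b1* in each replicate of siPax8 cells and of the control on the same arrays; bars are means of 4 replicates and every panel covers the same log2 span. *Scnn1g* is near 10.12 in both sets of siPax8 values and near 8.77 and 8.94 in the controls, whereas for *Prss8* the siPax8 means of 8.18 and 8.16 lie between the wt mean of 8.48 and the siScramble mean of 8.03.

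The surrounding pathway was described by 73 further genes in 5 lists, of which 60 had a probe. A gene was called where each of its probes was. Against wt cells 3 of the 60 were higher and 8 lower, and against siScramble cells 1 was higher and 1 lower. Over all probes, each counted by itself, 7.04% were higher and 8.23% lower against wt cells. Against siScramble cells these shares were 1.22% and 0.897%. They are shares of probes, whereas a gene here needed all its probes called. The counts within the lists below stand beside the same shares, and those at an unadjusted p under 0.05 beside the shares given earlier. The median log2 ratio over these genes was 0 in both comparisons, beside -0.0036 and -0.0037 over all probes.

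Among the regulators of the channel, 16 of 22 listed genes were measured, and 1 was higher and 3 were lower against wt cells. *Tsc22d3*, a glucocorticoid-induced gene whose product raises channel activity, rose by log2 ratios of 0.66 and 0.30 on its 2 probes (limma adjusted p = 2.73e-06 and 0.000596), beside 0.24 and 0.06 against siScramble cells (limma adjusted p = 0.058 and 0.512). *Hsd11b2*, whose enzyme inactivates glucocorticoids, fell to 72.1% of the wt level (limma adjusted p = 0.000174) and was at 84.3% of the siScramble level (limma adjusted p = 0.0441). *Hsd11b1*, whose enzyme regenerates them, fell to 72.4% and 69.4% on its 2 probes (limma adjusted p = 0.000149 and 5.69e-06). Against siScramble cells the *Hsd11b1* ratios were 0.03 and 0.02 (limma adjusted p = 0.802 and 0.831), and the difference between the comparisons passed the threshold for both probes (limma adjusted p = 0.00166 and 5.04e-05). *Usp2*, a deubiquitinating enzyme that stabilizes the channel, fell to 80.8% of the wt level (limma adjusted p = 0.000743) and was at 97.7% of the siScramble level (limma adjusted p = 0.673). The clock gene *Per1*, a regulator of the alpha subunit gene in kidney cells, was the one regulator called against siScramble cells, at 124% (limma adjusted p = 0.00235), with a log2 ratio of 0.07 against wt cells (limma adjusted p = 0.439). *Nr3c2*, which encodes the mineralocorticoid receptor and was singled out after its values were seen, was at 116% of the wt and 119% of the siScramble level on probe A_43_P15261 (limma adjusted p = 0.000579 and 0.0023), whereas its other probe, A_44_P158441, gave log2 ratios of 0.01 and -0.03 and was above background on 2 of 16 arrays in siPax8 cells, so that the gene was not called. The ubiquitin ligase gene *Nedd4l*, whose product removes the channel from the membrane, had no named probe.

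Of the proteases that activate the channel and their inhibitors, 10 of 14 were measured, 0 were higher and 2 were lower against wt cells, and 0 were called against siScramble cells (limma; at an unadjusted p under 0.05, 1 was higher and 3 were lower against wt, and 1 was higher and 1 lower against siScramble cells). *St14*, which encodes matriptase, fell to 80.2% of the wt level (limma adjusted p = 0.000613) and was at 88.4% of the siScramble level (limma adjusted p = 0.024). *Furin* fell to 83.1% of the wt level (limma adjusted p = 0.000487) and was at 95.7% of the siScramble level (limma adjusted p = 0.466). Of the 5 acid-sensing relatives of the channel, 0 were called in either comparison (limma; also 0 at an unadjusted p under 0.05), and 4 were above background on no array.

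Among the other pump subunits and FXYD genes, 14 of 16 were measured, of which 5 were above background on no array. This list also held the H+/K+ pump genes *Atp12a* and *Atp4b*. *Fxyd5*, which encodes dysadherin, fell to 66.7% of the siScramble level (limma adjusted p = 0.000794) and was at 90.5% of the wt level (limma adjusted p = 0.037). This difference between the comparisons, 0.44 on the log2 scale, passed the threshold (limma adjusted p = 0.00245).

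Of the genes listed as carriers that use the sodium gradient, 15 of 16 were measured. Of these, 1 was higher and 3 were lower against wt cells and 0 were called against siScramble cells (limma). At an unadjusted p under 0.05 limma gave 4 higher and 2 lower against siScramble cells. The list also held *Slc12a4*, which is not driven by sodium, and the scaffold gene *Nherf1*, which is among the 3 lower. *Slc5a5*, the sodium/iodide symporter, fell to 65.6% of the wt level (limma adjusted p = 3.09e-06) and was at 105% of the siScramble level (limma adjusted p = 0.364). The phosphate carrier gene *Slc20a1* fell to 72.5% and 71.9% of the wt level on its 2 probes (limma adjusted p = 1.16e-05 and 0.000151) and was at 84.2% and 83.8% of the siScramble level (limma adjusted p = 0.0171 and 0.011). *Slc4a4*, a sodium bicarbonate cotransporter, rose to 158% of the wt level (limma adjusted p = 4.22e-05) and was at 136% of the siScramble level (limma adjusted p = 0.0456). *Nherf1*, a scaffold protein of such carriers rather than a carrier and named after its values were seen, fell to 86.4% of the wt level (limma adjusted p = 0.00425) and was at 99.1% of the siScramble level (limma adjusted p = 0.913).

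**Figure D4:**
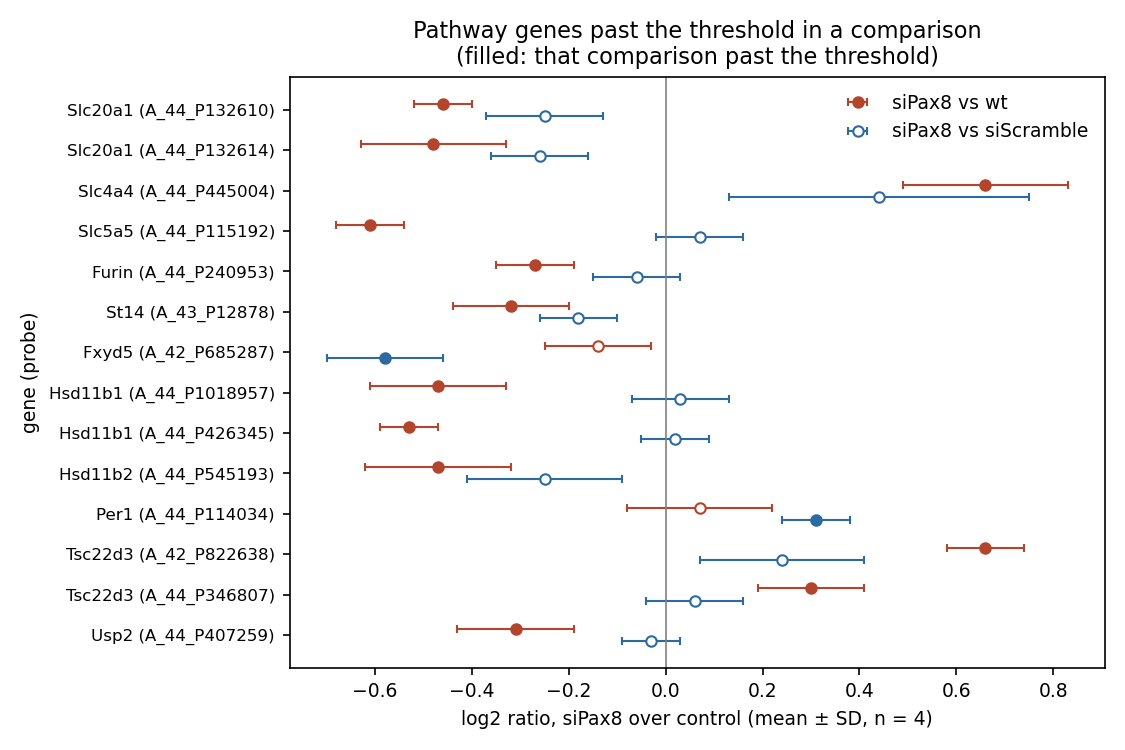
Log2 ratio of siPax8 over control (mean ± SD, n = 4) for each probe of pathway genes with a large mean size among those called in a comparison; filled points passed the threshold in that comparison. Most filled points are in the comparison with wt cells; *Per1* and *Fxyd5* are filled against siScramble cells.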

How the data were processed

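The authors deposited scanner files with mean spot intensity and median background intensity of Cy3 and Cy5, without normalization (Feature Extraction 10.1.1.1 per the file headers), and a table of normalized log2 ratios, which correlated with the values here from -0.999 to -0.993 and so holds control over siPax8. Its column medians were -0.000112 to 0.0068. Its background step is not given in the sources used here. Agilent's processed signals, also in the files, were used as an alternative. Per the labels, limma was used.

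Intensities went through limma 3.58.1 in R 4.3.3: normexp (offset 50), loess within arrays, removal of 1639 control spots, and quantiles between arrays. Outlier spots (112 to 215 per array) were left out, and spots of a probe and then dye-swapped arrays were averaged. Between 52% and 60.8% of spots were well above background in a channel, and the number of arrays limits the precision. Each comparison was fitted by lmFit and eBayes to 4 values per probe. Differences between comparisons were tested on 8 values as separate groups, although the siPax8 samples may be shared between them. Between dye orientations the deviations of same-numbered arrays correlated with 0.12 to 0.58, and these were paired. Replicate 2 against wt cells correlated less with its own number (0.12) than with another (0.2). The block correlation of the replicate was -0.12 in each comparison. Between comparisons the deviations of same-numbered replicates correlated with 0.04 to 0.57, so that pairing was an alternative. There replicates 2 and 3 correlated more with another number (0.41 for each) than with their own (0.18 and 0.04).

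Names came from RefSeq (GRCr8), which named 10768 probes. The named genes are all members, the 12 pathway genes with the largest mean size among those called, *Slc5a5*, *Nedd4l* and *Pax8*, of which 1 gene is not reported here. The members, lists and rule were chosen with earlier results of these data known. The fits were tested on simulated data. Probe sequences were not used here.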

Additional observations from a re-analysis of the deposited data

Results flagged for a closer look

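The difference of *Prss8* between the comparisons, -0.42 on the log2 scale, was singled out because the ratio against wt cells and the ratio against siScramble cells differed by limma's test of the difference (adjusted p = 0.003). Replicate 1 of *Scnn1b* against wt cells, with a log2 ratio of 0.04, stood apart from the other replicates at -0.07 to -0.05. By chance about 1 in 20 groups holds such a sample.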

How the results depend on the processing

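*Scnn1g* kept its direction and its call in 19 of 19 alternatives in each comparison, with log2 ratios of 1.23 to 1.57 against wt (highest limma adjusted p = 0.00032) and 1.06 to 1.37 against siScramble cells (highest 0.00387). Members called higher against wt cells numbered 2 in place of 1 with Agilent's processed signals, with siPax8 in Cy5 only and with a term for the dye, the other being *Fxyd1* at background. Those lower against wt cells numbered 0 with Agilent's processed signals, siPax8 in Cy3 only or the 8 arrays as independent values, and 2 with the slide as a block. Leaving out a replicate gave 0 to 1. Those higher against siScramble cells numbered 3 with siPax8 in Cy3 only, with *Prss8* and *Atp1b1*. The difference was called for 0 members with Agilent's processed signals or with either dye alone, for 2 with the authors' log2 ratios, and for 0 to 1 when leaving out a replicate. With the replicate block the counts were 1 higher and 1 lower against wt, 1 higher and 0 lower against siScramble cells and 1 for the difference (*Prss8*, limma adjusted p = 0.000265), so it changed no call. The causes were not tested. Directions reversed only in values near 0. With siPax8 in Cy3 only, *Scnn1b* was at 0.02 and *Sgk1* at -0.03 against wt cells, and leaving out a replicate gave *Sgk1* -0.01 (without replicate 4) to 0.07 (without replicate 1). The *Scnn1a* probe at background reversed to 0 without background correction, 0.03 in Cy3 only and 0.02 without replicate 3 against wt cells. Against siScramble cells it reversed to 0.06 without background correction, 0.14 with Agilent's processed signals, 0.02 with loess only and with Aquantile, 0.01 in Cy3 only, and 0.01 and 0.02 without replicates 3 and 4 (lowest -0.02, without replicate 1). Its difference reversed to 0.02 in Cy3 only, and to 0.01 and 0 without replicates 1 and 3. The lowest difference on leaving out a replicate was -0.05 (without replicate 4), and the lowest over all alternatives was -0.39.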
